A study of Mus musculus with 10 samples.

Results

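The secreted Wnt inhibitors Dkk2, Dkk3, Sfrp1, Sfrp2 and Sfrp4 were examined in adult mouse gastrocnemius, a calf muscle, after deletion of the myostatin gene Mstn. They are 5 of 18194 genes with a probe set of their own on the array, and every probe set annotated to 1 of these symbols alone was taken, 10 in all. The genes were chosen by their lower intensities in the knockout muscles of these same data, so their differences between the groups are given as a description, with no p-value. Counts of them past a threshold stand only beside the share over the whole array. Dkk1, Dkk4, Sfrp5 and Frzb (also known as Sfrp3), of the same families, are not among the 5 and are described separately.

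Knockout mice (labelled Floxed_Mstn, n = 5 arrays) carried floxed myostatin genes, that is, genes flanked by sites that Cre recombines. Control mice (WT_Mstn, n = 5 arrays) had normal ones. All 10 samples came from males of 7.5 months on a C57BL/6 background that carried the CAGG-CreER transgene. These had 8 tamoxifen injections from 4 months of age. CAGG is a promoter active in most cell types, and so does not restrict Cre to muscle fibres. Each array measured the RNA of 1 muscle sample, though nothing states outright that each came from a separate mouse. Values are log2 of the deposited intensity. No probe set was annotated to Mstn, so the deletion itself has no check here.

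Wnt proteins are secreted signals that bind Frizzled receptors and the co-receptors Lrp5 and Lrp6. When they bind, beta-catenin is stabilised and activates target genes together with TCF and LEF factors. Proteins of the Sfrp family carry a Frizzled-like cysteine-rich domain and bind Wnts outside the cell. Dickkopf proteins act on the co-receptors: Dkk1, Dkk2 and Dkk4 bind Lrp5 and Lrp6, while Dkk3 is the divergent member whose action on Wnt signalling is weak or dependent on the cell. In skeletal muscle Wnt signalling takes part in regeneration, in the behaviour of satellite cells and in fibrosis.

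All 5 genes had lower means in knockout muscle on their brightest probe set, but by very different amounts. Dkk3 was 4.52-fold lower and Sfrp1 1.99-fold lower in knockouts, while Sfrp4 and Sfrp2 were 1.35-fold and 1.18-fold lower. Dkk2 was too dim for a fold to be given. The median of the 5 differences, Dkk2 included, was -0.43 on the log2 scale, and also with values below 4 set to 4, beside a median of -0.0049 over the 10704 genes whose probe sets passed the filter on dim values. A lower mean alone is common, as 50.8% of the 21154 probe sets kept by that filter (a log2 intensity averaging at least 4 over all arrays) had one. Only 4 of the 10 member probe sets passed the filter, 1 each for Dkk3, Sfrp1, Sfrp2 and Sfrp4. The other 6 probe sets were too dim, among them the single one for Dkk2. None of the 4 passed limma at an adjusted p of 0.05, which 0.0993% of all kept probe sets did. At an unadjusted p under 0.05 there were 2, Dkk3 and Sfrp1, where 7.69% of all kept probe sets lay. Because the genes were picked on this contrast, nothing is read from these counts.

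**Figure D1:**
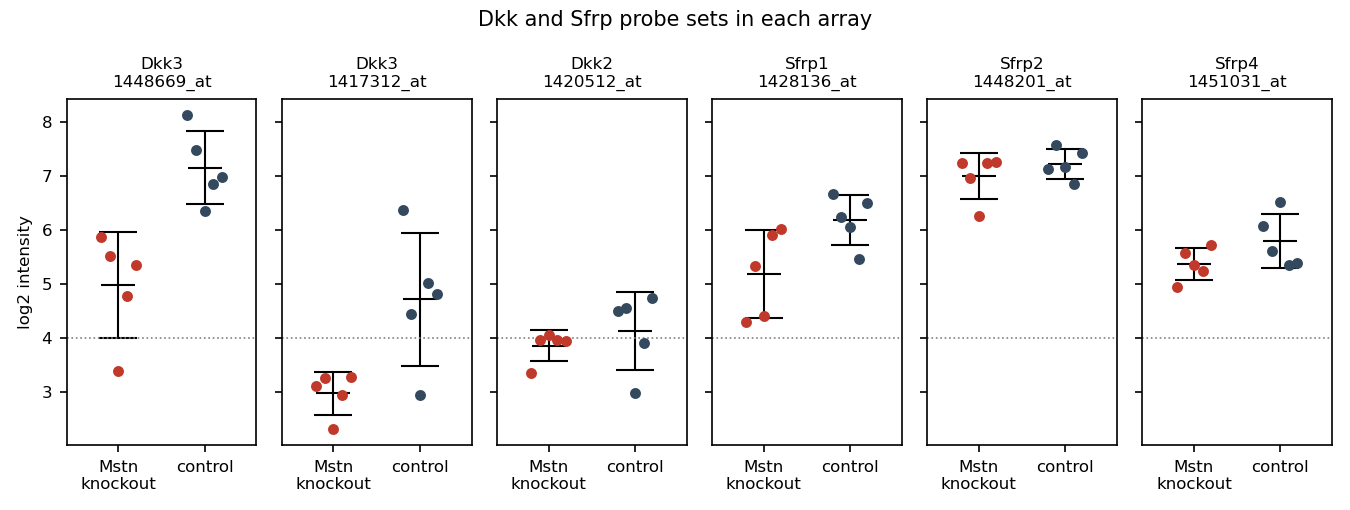
Log2 intensity (vertical axis) of 6 Dkk and Sfrp probe sets in each of 5 knockout (red, left) and 5 control arrays (dark blue-grey, right). Black marks show the mean and SD, the dotted line is the filter level of 4, and the 4 dim Sfrp1 probe sets are left out. Only Dkk3 probe set 1448669_at has groups that do not overlap, with knockouts at 3.38 to 5.87 and controls at 6.34 to 8.13.

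Dkk3 differed most. Its brighter probe set, 1448669_at, had log2 intensities of 5.87, 5.51, 3.38, 4.77 and 5.35 in knockouts 1 to 5, and of 8.13, 7.47, 6.34, 6.85 and 6.98 in controls 1 to 5. Every knockout lay below every control, and knockout 3 lay lowest. The means were 4.98 ± 0.98 in knockouts and 7.15 ± 0.68 in controls (SD, n = 5 each), a difference of -2.18 ± 0.53 (SE). Among kept probe sets 0.893% had every knockout below every control, and 3 probe sets (0.0142%), this one included, were lower by 2 or more on the log2 scale. The other Dkk3 probe set, 1417312_at, had 3.11, 3.25, 2.30, 2.93 and 3.26 in knockouts, and 6.36, 4.43, 2.94, 5.01 and 4.80 in controls. No knockout reached 4 there, and 4 of 5 controls did. The groups overlapped through control 3 alone, which lay at 2.94, and the difference was -1.74 ± 0.58 (SE). With a mean of 3.84 this probe set lay under the filter, where intensities run close to the floor of the method. With values below 4 set to 4, the differences of the brighter and the dimmer probe set were -2.05 and -0.92, so much of the second value rests on intensities near the floor.

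Sfrp1, which binds Wnts and is made by stromal cells of many tissues, came second. Probe set 1428136_at had 4.28, 5.32, 4.40, 5.90 and 6.01 in knockouts 1 to 5, and 6.66, 6.23, 6.04, 5.45 and 6.50 in controls 1 to 5. The groups overlapped: 3 knockouts lay below the lowest control, and knockouts 4 and 5 lay among the controls. The means were 5.18 ± 0.81 in knockouts and 6.18 ± 0.47 in controls (SD, n = 5 each), a difference of -1.0 ± 0.42 (SE). The 4 other Sfrp1 probe sets ran from 2.13 to 2.75 on all arrays, and their differences were 0.00 to 0.01. At that level a probe set carries no measurable signal, so these 4 neither add to nor oppose the value of the bright one. Sfrp1 therefore rests on 1 of 5 probe sets.

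Sfrp4 is another Wnt-binding member of the family and is known for its part in bone. Its probe set 1451031_at had 4.93, 5.57, 5.35, 5.23 and 5.71 in knockouts, and 6.07, 5.61, 6.52, 5.35 and 5.39 in controls. Knockouts 1 and 4 lay below all controls, and the other 3 lay among them. The means were 5.36 ± 0.30 in knockouts and 5.79 ± 0.50 in controls, a difference of -0.43 ± 0.26 (SE). Controls 1 and 3 alone stood above all knockouts.

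Sfrp2, a Wnt-binding protein made by connective tissue fibroblasts, had the smallest difference. Probe set 1448201_at had 7.24, 6.96, 6.25, 7.24 and 7.26 in knockouts, and 7.13, 7.57, 7.16, 6.85 and 7.41 in controls. Only knockout 3 lay below all controls, and the other 4 knockouts lay within the control range. The means were 6.99 ± 0.43 in knockouts and 7.22 ± 0.28 in controls, a difference of -0.24 ± 0.23 (SE), about as large as its error. Without knockout 3 it was -0.05.

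Dkk2, a ligand of Lrp5 and Lrp6 that can inhibit or activate the pathway depending on the co-receptors present, lay at the edge of detection. Probe set 1420512_at had 3.34, 3.95, 4.05, 3.96 and 3.94 in knockouts, and 4.49, 4.54, 2.97, 3.89 and 4.73 in controls. Only knockout 3 reached 4 among the knockouts, against controls 1, 2 and 5, and control 3 was the lowest of all arrays. The means were 3.85 ± 0.29 in knockouts and 4.12 ± 0.72 in controls, a difference of -0.28 ± 0.34 (SE), smaller than its error. The overall mean of 3.99 fell just under the filter level of 4.

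Upstream sequence was at hand for 2 of the 5 genes, Dkk2 and Sfrp2. Both are shown for the motifs of the factors that carry Wnt and myostatin signals, the TCF/LEF motif (CTTTGAT or CTTTGAA) and the palindromic SMAD motif (GTCTAGAC), and for the TATA box motif (TATAAA). The sequences are the 250 bases before the gene start in RefSeq (build GRCm38.p6, plus strand), at chr3:132085042-132085291 for Dkk2 and chr3:83766071-83766320 for Sfrp2, written 5′ to 3′. Capitals mark motif matches on either strand.
Dkk2: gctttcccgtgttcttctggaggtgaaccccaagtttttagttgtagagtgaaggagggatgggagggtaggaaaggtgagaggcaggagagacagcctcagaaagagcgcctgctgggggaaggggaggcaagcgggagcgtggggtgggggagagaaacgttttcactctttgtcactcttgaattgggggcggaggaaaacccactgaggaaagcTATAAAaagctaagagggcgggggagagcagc
Sfrp2: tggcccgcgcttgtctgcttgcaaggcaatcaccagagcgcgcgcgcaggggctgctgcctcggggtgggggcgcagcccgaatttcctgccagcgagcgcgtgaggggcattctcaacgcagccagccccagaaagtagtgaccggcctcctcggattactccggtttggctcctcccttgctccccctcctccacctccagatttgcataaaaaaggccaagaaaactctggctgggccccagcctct
Dkk2 held TATAAA once, with its first base 32 bases before the start, and none of the other motifs. Sfrp2 held none of the 4. Among 32851 windows of the same length, 3.21% held CTTTGAT, 4.46% CTTTGAA, 0.167% GTCTAGAC and 12.4% TATAAA. A window without a match says only that these letters are not in it.

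The arrays differed among themselves in a way that did not follow genotype, and some of the inhibitors were lowest on the arrays that stood apart. Its part in their differences was not tested beyond the values given here. Hybridisation controls of bacterial origin (7 probe sets, for transcripts spiked into every sample) averaged 13.15 ± 0.25 in knockouts and 13.12 ± 0.14 in controls (log2, SD, n = 5 each). They were highest on knockout 1, knockout 3 and control 3, at 13.36, 13.46 and 13.34. Sfrp1 was lowest on knockouts 1 and 3, Dkk3 and Sfrp2 on knockout 3, and Dkk2 on control 3. Sfrp4 was lowest on knockout 1 but had its highest value of all arrays, 6.52, on control 3. Deviations of Sfrp1 from its group mean ran against those of the controls, at a Pearson's r of -0.84 across 10 arrays, where Spearman's rho was -0.85. Exact permutation within groups (14400 orders, two-sided) gave p of 0.0186 for r and 0.0106 for rho. Adjusted for all 30 relations examined (Benjamini-Hochberg), these became 0.491 and 0.318. With the 2 arrays of most extreme hybridisation controls removed, r was -0.87. It was -0.94 within knockouts and -0.52 within controls. For Dkk3 r was -0.59 and rho -0.66 (exact p = 0.117 and 0.0565, adjusted 0.491 and 0.679), but the pooled r was 0.01 without the 2 arrays of most extreme deviation. Within knockouts r was -0.46 and within controls -0.94. For Sfrp2, Dkk2 and Sfrp4 the pooled r was -0.55, -0.51 and -0.13 (exact permutation p adjusted 0.491, 0.491 and 0.817). Without the 2 arrays of most extreme deviation these were -0.13, -0.53 and -0.84.

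**Figure D2:**
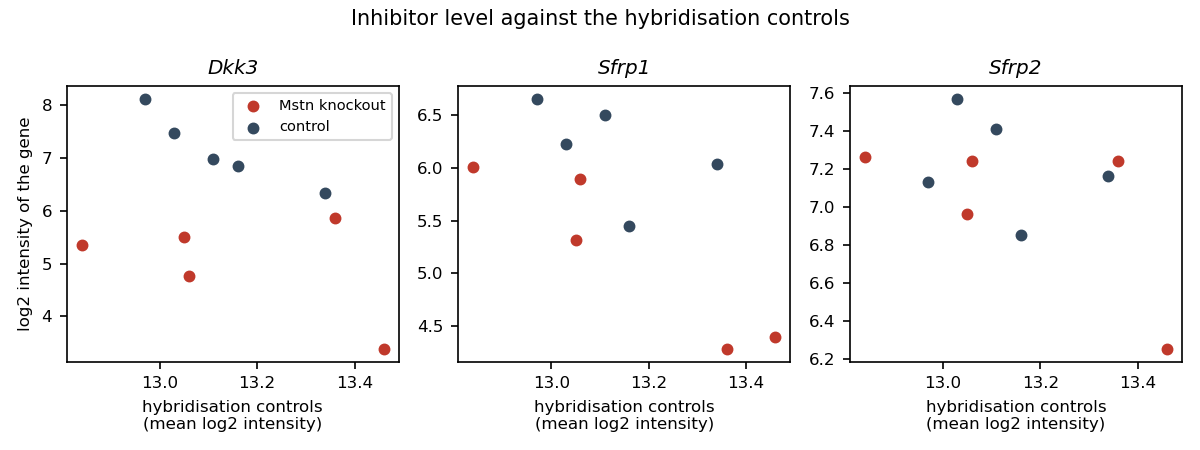
Log2 intensity of Dkk3, Sfrp1 and Sfrp2 (vertical axis) against the mean log2 intensity of the bacterial hybridisation controls (horizontal axis), 1 point per array, 5 knockouts in red and 5 controls in dark blue-grey. Sfrp1 lies lowest on knockouts 1 and 3, where these controls were 13.36 and 13.46, while Dkk3 knockouts lie below the Dkk3 controls along the whole range.

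Leaving out those 3 arrays kept knockouts 2, 4 and 5 and controls 1, 2, 4 and 5, and changed Dkk3 little. The arrays left out held the lowest values of Sfrp1 and Sfrp2 and both the lowest and the highest of Sfrp4. They also held the lowest Dkk3 value of each group, 3.38 on knockout 3 and 6.34 on control 3, and the lowest Dkk2 value, 2.97 on control 3. The difference of every member without these arrays, that of Dkk3 included, thus depends in part on the choice of arrays. Without knockout 1, knockout 3 and control 3 the Dkk3 difference was -2.14, close to the -2.18 of all arrays. The Sfrp1 difference became -0.47, that of Sfrp4 -0.10 and that of Sfrp2 -0.09, while that of Dkk2 became -0.46. With the hybridisation controls as a covariate the differences were -2.09 for Dkk3, -0.90 for Sfrp1, -0.42 for Sfrp4, -0.23 for Dkk2 and -0.20 for Sfrp2. Leaving out 1 array at a time gave -1.78 (without knockout 3) to -2.40 (without knockout 1) for Dkk3 and -0.77 (without knockout 1) to -1.20 (without knockout 5) for Sfrp1. The range was -0.25 (without control 3) to -0.54 (without control 4) for Sfrp4. It was -0.12 (without control 5) to -0.56 (without control 3) for Dkk2.

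**Figure D3:**
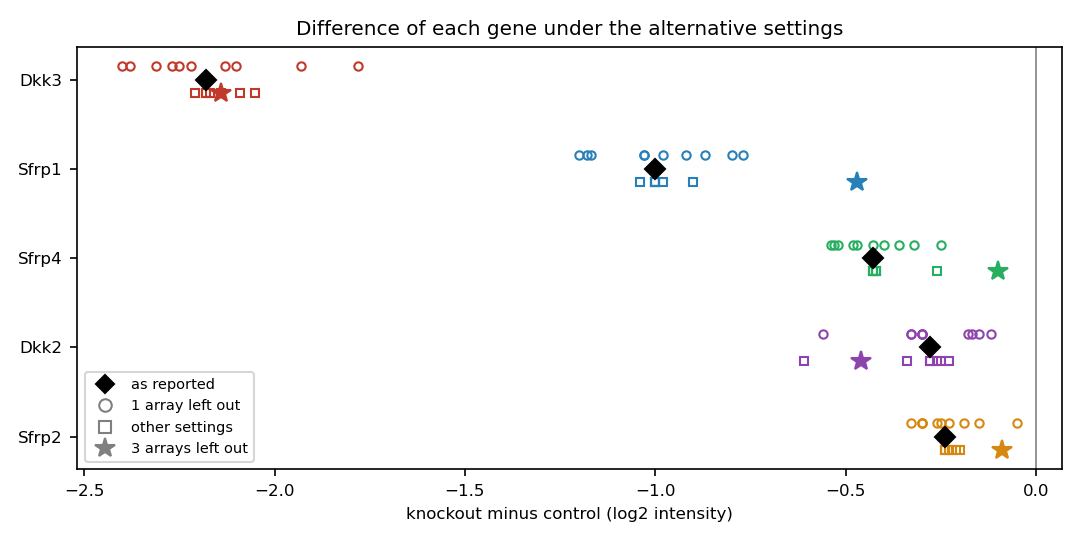
Knockout minus control difference in log2 intensity (horizontal axis) of the brightest probe set of each gene (vertical axis), as reported (black diamonds), with 1 array left out (circles), under other settings (squares) and without the 3 arrays of highest hybridisation controls (stars). Dkk3 stays between -2.40 and -1.78, while the star of Sfrp1 lies at -0.47 and those of Sfrp4 and Sfrp2 at -0.10 and -0.09. The star of Dkk2 lies at -0.46, below its -0.28 with all arrays.

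None of the 10 pairs among the 5 genes had a relation within genotypes that passed adjustment. Of these pairs, Dkk3 with Sfrp2 had the highest Pearson's r of deviations from the group mean, 0.65 (Spearman's rho 0.37, exact permutation p = 0.0895 and 0.311, adjusted 0.491 and 0.718). Without 2 arrays r was 0.47. Sfrp1 with Sfrp2 had 0.55 (rho 0.44, exact permutation p = 0.138 and 0.231, adjusted 0.491 and 0.693), and 0.72 without 2 arrays. Dkk2 with Sfrp4 had the lowest r, -0.39 (rho -0.15, exact permutation p = 0.429 and 0.726, adjusted 0.715 and 0.895), and -0.01 without 2 arrays. Among 8887 other genes averaging at least 6 in log2 intensity, the 8 whose deviations were most like the mean standardized deviation of the 5 were Hdgfl2, Dcakd, Tmem143, Necap2, Tfe3, Ctnnbl1, Ldah and Rbm22. Their r ran from 0.96 to 0.98 over 10 arrays, as the highest of 8887 values. All 8 also ran against the hybridisation controls, with r from -0.93 to -0.78, and the mean of the 5 inhibitors had -0.87. None of the 8 passed limma for genotype, with adjusted p from 0.465 to 0.987. The genes most like Dkk3 alone were Srebf1, a transcription factor of lipid synthesis, with r of 0.98, and Smpdl3a and the fatty acid desaturase Fads1 with 0.95 each. For Sfrp1 they were Ndrg4 (0.97), Cybc1 (0.96) and the integrin Itga6 (0.95). For Sfrp2 they were Xaf1 (0.97), the adipocyte hormone Retn and Tasp1 (0.95 each). For Dkk2, itself near the floor, they were Nop14, Wdr83 and the proteasome subunit Psmb2 (0.97 each). Sfrp4 had weaker matches, Slc2a12 and Atxn2 with 0.88 and Ppp1cc with 0.87. These too are the highest of 8887 values each, over 10 arrays. Against the hybridisation controls the Sfrp1 matches had r from -0.89 to -0.79 and the Dkk3 matches from -0.71 to -0.59. Those of Sfrp4 had -0.18 to 0.13.

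Other secreted Wnt inhibitors did not share 1 direction. Frzb, a Wnt-binding protein of the Sfrp family, was higher in knockouts. Its probe set 1416658_at had 8.20, 8.08, 7.43, 7.71 and 7.96 in knockouts 1 to 5, and 7.05, 7.51, 7.41, 6.67 and 5.48 in controls 1 to 5. All knockouts but knockout 3 lay above every control, and control 5 lay far down. The means were 7.88 ± 0.31 in knockouts and 6.83 ± 0.82 in controls (SD, n = 5 each), a difference of 1.05 ± 0.36 (limma SE), 2.07-fold, with an unadjusted p of 0.0151 and an adjusted p of 0.502 (limma, Benjamini-Hochberg over 21154 probe sets). It was 0.71 without control 5 and 1.23 without the 3 arrays of highest hybridisation controls. Over the alternatives its adjusted p ran from 0.199 to 0.868. Its other probe set was under the filter.

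Sfrp5, a family member known from adipose tissue, had 6.72, 6.82, 5.74, 7.15 and 7.66 in knockouts, and 7.67, 7.84, 7.83, 7.32 and 6.59 in controls. The groups overlapped widely and the difference was -0.63 ± 0.36 (limma SE, adjusted p = 0.762). It was -0.14 without the 3 arrays of highest hybridisation controls. Sostdc1, a secreted inhibitor of both bone morphogenetic proteins and Wnts, had means of 4.44 ± 0.30 in knockouts and 4.90 ± 0.46 in controls, a difference of -0.47 ± 0.23 (limma SE, adjusted p = 0.707). Dkk1, Dkk4, Dkkl1, Sost, Notum and Wif1 lay under the filter. Among these 6, Wif1 reached 4.02 on knockout 1, and the other 5 stayed at or below 2.51 on every array, so no change in them could be measured.

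The rest of the Wnt pathway was taken from lists of ligands, receptors, transducers and targets. With the other inhibitors they held 83 entries, of which 40 genes had a kept probe set, 41 lay under the filter and 2 had no probe set. None of the 40 passed limma at an adjusted p of 0.05, the lowest adjusted p being the 0.502 of Frzb. At an unadjusted p under 0.05 there were 2 of 40, Frzb and Wnt4, beside 7.69% of all kept probe sets. With array weights there were 8, and the share over all kept probe sets was then 12.5%. Values were lower in knockouts for 18 and higher for 22, with a median of 0.03, beside -0.0049 over all kept genes.

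Among 21 genes of Wnt ligands and their secretion 6 were kept, and 5 had higher values in knockouts (median 0.19). Wnt4, a ligand, had 8.03, 8.33, 8.10, 8.57 and 8.82 in knockouts 1 to 5, and 7.98, 8.02, 6.89, 8.06 and 8.06 in controls 1 to 5 on probe set 1450782_at. Knockout 1 alone lay among the controls, and control 3 lay far below the rest. The difference was 0.56 ± 0.25 (limma SE, unadjusted p = 0.0488, adjusted p = 0.646), and 0.34 without control 3. Its second probe set, 1441687_at, gave 0.50 ± 0.22 (adjusted p = 0.634). Wnt5b differed by 0.27 (adjusted p = 0.715) and Wls, the carrier that brings Wnts to the cell surface, by 0.28 (adjusted p = 0.858). The 4 R-spondins, secreted enhancers of Wnt signalling, were all under the filter.

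Of 20 receptor genes 12 were kept, 7 lower and 5 higher (median -0.09, none past the threshold). Those of lowest p were Fzd4 (0.25 ± 0.14, adjusted p = 0.749), Fzd6 (-0.26 ± 0.16, adjusted p = 0.794) and Fzd5 (-0.27 ± 0.17, adjusted p = 0.797). The Sfrp proteins compete with such Frizzled receptors for Wnts. Kremen1, which binds Dickkopf proteins together with Lrp6, differed by 0.12 (adjusted p = 0.917). Of 14 intracellular genes 13 were kept, 4 lower and 9 higher (median 0.04). Gsk3a, a kinase that marks beta-catenin for breakdown, had -0.15 ± 0.08 (adjusted p = 0.73), Apc -0.16 ± 0.15 on its brightest probe set (adjusted p = 0.909, with 0.05 and 0.25 on the other 2) and Bcl9 -0.10 ± 0.10 (adjusted p = 0.918). Of 13 target genes 5 were kept, 4 lower and 1 higher (median -0.27). The cell cycle gene Ccnd1 had -0.27 ± 0.15 (adjusted p = 0.749), Axin2, a feedback inhibitor widely used as a readout of the pathway, -0.30 ± 0.22 (adjusted p = 0.845), and Apcdd1 -0.40 ± 0.33 (adjusted p = 0.875), each with its limma SE.

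**Figure D4:**
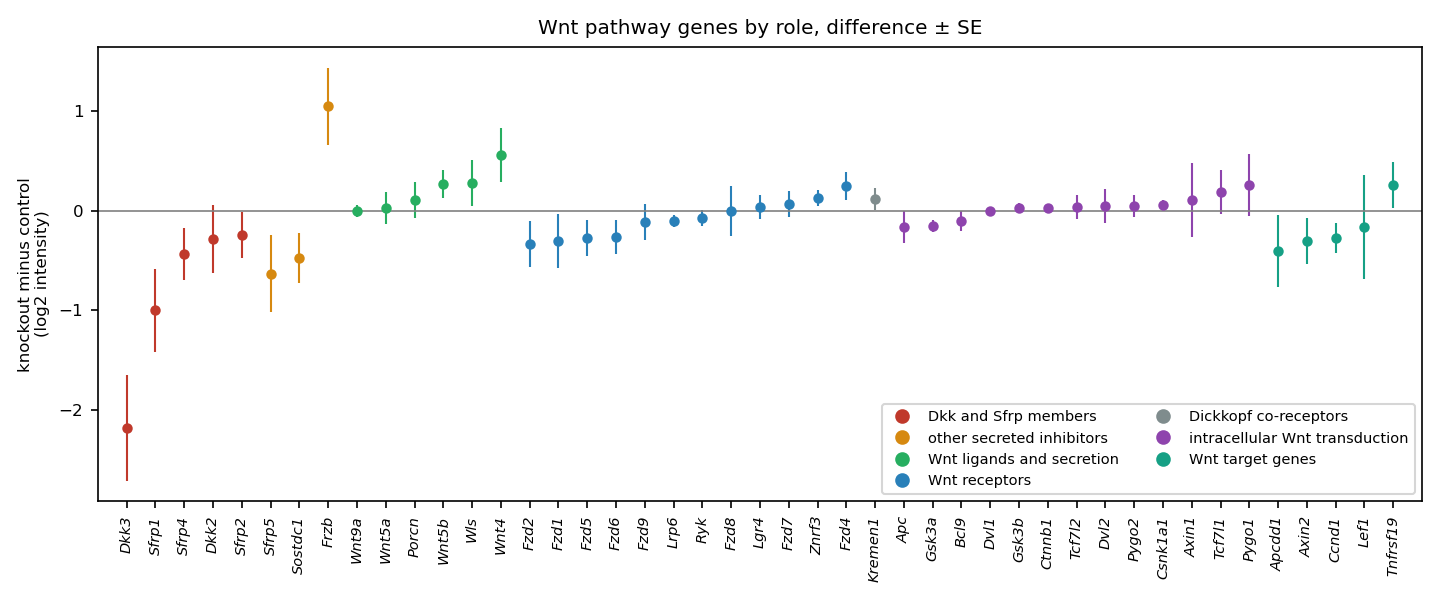
Knockout minus control difference in log2 intensity (vertical axis, bars show the SE from the spread of 5 arrays per group) for the 5 members and 40 other Wnt pathway genes, coloured by role. Dkk3 at -2.18 and Sfrp1 at -1.0 lie lowest and Frzb at 1.05 lies highest.

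In whole muscle, fewer cells of a type and less RNA per cell cannot be told apart. Values of connective tissue markers lay on the low side in the same knockout muscles, where 51.5% of all kept genes did. Few passed limma's adjusted threshold, which 0.0993% of all kept probe sets did. At an unadjusted p under 0.05 there were 8 of 8 interstitial collagen, 9 of 10 tendon and 4 of 10 fibroblast genes, beside 7.69% of all kept probe sets. These lists too were chosen with earlier results known. Their part in the differences of the inhibitors was not tested. All 8 interstitial collagen genes lay lower in knockouts (median -0.59), 2 of them past limma's threshold, Col6a3 (-0.56, adjusted p = 0.0377) and Col1a2 (-0.84, adjusted p = 0.0494). With 1 array left out each passed in only 1 of 10 fits, the one without knockout 5. Over all 20 alternatives each passed in 8. The adjusted p ran from 0.00929 to 0.193 for Col6a3 and from 0.0124 to 0.193 for Col1a2. The differences stayed at -0.60 to -0.48 for Col6a3 and -0.92 to -0.79 for Col1a2. The summed intensity of the 8 collagen genes was 14970 to 18420 in knockouts and 23020 to 27040 in controls. Of 12 fibroblast markers listed, 10 had a probe set of their own, and all 10 had lower values (median -0.32, none past the threshold). Their sums were 21910 to 30380 in knockouts and 26450 to 34260 in controls. Tendon markers had lower values for 10 of 10 (median -0.95, none past the threshold), with sums of 15510 to 30980 in knockouts and 29440 to 36290 in controls. Muscle fibre markers had a median difference of 0.03 over 12 members, with sums of 429300 to 449200 in knockouts and 425600 to 449600 in controls, so the samples are muscle by their defining genes.

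Other cell types had medians of -0.18 (endothelial, 8 of 10 lower), -0.36 (smooth muscle and pericyte, 7 of 7) and -0.41 (macrophage, 10 of 10). Medians were -0.38 (Schwann cell, 5 of 5), -0.23 (satellite cell, 3 of 4) and 0.10 (adipocyte, 2 of 5), with no member of any list past the threshold. Lower values were seen for 51.5% of all kept genes. Beside 7.69% of all kept probe sets, those at an unadjusted p under 0.05 were 3 of 10 endothelial, 4 of 7 smooth muscle and pericyte, 2 of 5 Schwann cell and 1 of 4 satellite cell markers. No marker of the 10 for macrophages or the 5 for adipocytes was among them. Summed intensities of the lists were 3757 to 4355 in knockouts and 4301 to 5164 in controls for endothelial, and 9085 to 10410 in knockouts and 10550 to 12240 in controls for smooth muscle and pericyte. They were 6160 to 11490 in knockouts and 8901 to 13150 in controls for macrophage, and 6097 to 9695 in knockouts and 7115 to 10970 in controls for Schwann cell markers. For satellite cells they were 759 to 980 in knockouts and 1065 to 1251 in controls, and for adipocytes 17170 to 21610 in knockouts and 18270 to 21710 in controls. Under the filter lay Cnn1, Mag, Calcr and Lep, 1 each of the smooth muscle, Schwann, satellite and adipocyte lists. Only 6 of 9 Schwann cell and 6 of 8 adipocyte genes listed had a probe set of their own. Within genotypes the 5 inhibitors showed no relation to the fibroblast, collagen or tendon list means past adjustment over the 30 relations, the nearest being Sfrp1 with collagen (r = 0.73, rho = 0.68, exact permutation p = 0.0378 and 0.0679, adjusted 0.491 and 0.679, r = 0.54 without 2 arrays). The difference between 3′ and 5′ Gapdh probe sets, a sign of RNA integrity, was 0.45 ± 0.03 in knockouts and 0.49 ± 0.03 in controls (log2, SD, n = 5 each).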

How the data were processed

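RNA of 10 gastrocnemius samples was measured on microarrays. The deposited values are linear intensities of 45101 probe sets, made with GCRMA per the submitters' processing notes (no version is stated there), and biotinylated cDNA was prepared with NuGEN kits per the labels' protocols. GCRMA compresses dim probe sets near a floor, so the size of a difference is uncertain there. Arrays have no read depth, and their number limits the precision.

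Log2 was taken of the deposited intensity. The platform annotation named 34958 probe sets with 1 symbol, 932 with several (not used) and 9211 with none. Gene IDs were matched to GRCm38.p6 (34754 matched, no symbol changed). After 64 array controls were left out, probe sets with a mean log2 of 4 or more were kept and fitted with limma 3.58.1 in R 4.3.3 (lmFit, eBayes, two-sided, Benjamini-Hochberg over 21154), a fit tested on simulated data. A gene's brightest probe set represents it. Groups follow the sample titles, and since nothing states outright that each array is a separate mouse, p-values measure the spread between these samples. Figures used matplotlib 3.10.9.

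The members and lists were chosen with earlier results of these data known. Named were all members, the other secreted inhibitors, up to 3 genes of lowest p per Wnt list, the 8 genes most like the members' mean and the 3 most like each member, with marker genes only where they passed the threshold or lay under the filter. Alternatives covered filter, floor, normalization, variance model, array weights, replicate block, hybridisation controls and arrays left out. No 2 arrays were identical, and their correlations ran from 0.944 to 0.991.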

Additional observations from a re-analysis of the deposited data

Results flagged for a closer look

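Of 66 groups of 5 arrays examined, 5 held an array far from the other 4, where chance gives about 1 in 20, or 3.3. In log2 intensity, Dkk2 was 3.34 in knockout 1 and 3.94 to 4.05 in knockouts 2 to 5, near the filter level throughout. Wnt4 lay at 6.89 in control 3, against 7.98 to 8.06 in the other controls. Gsk3a lay at 9.18 in control 2, against 9.04 to 9.08. Bcl9 lay at 6.93 in control 5, against 6.43 to 6.53. The Schwann cell list mean lay at 8.68 in control 5, against 9.23 to 9.37.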

How the results depend on the processing

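No member probe set and no brightest probe set of another Wnt gene passed limma's adjusted threshold under any alternative run. At an unadjusted p under 0.05 there were 1 to 3 member probe sets and 1 to 8 other Wnt genes, the 8 with array weights. Over all probe sets fitted, the number under 0.05 ran from 1249 (without knockout 2) to 2730 (hybridisation controls as a covariate). The share was 7.69% in the main fit and 12.5% with array weights. Because the members were picked on this contrast, nothing is read from their counts. The differences of Dkk3, Sfrp1, Sfrp2, Sfrp4 and Dkk2 on their brightest probe sets were negative in all 18 alternatives run on single probe sets, and the median over the 5 genes ran from -0.28 (mean of all probe sets of a gene) to -0.61 (array weights), with -0.32 to -0.56 when 1 array was left out. The second Wnt4 probe set, 1441687_at, had an adjusted p of 0.0317 with the hybridisation controls as a covariate, and its highest over the alternatives was 0.969. The 21 probe sets called over the whole array became 11 with no filter, 36 after quantile normalization, 58 with a variance trend and robust fit, 67 with array weights, 99 with the hybridisation control covariate (62 higher, 37 lower), 7 without the 3 arrays of highest hybridisation controls (5 higher, 2 lower) and 1 with the replicate number as a block, against 11 higher and 10 lower. They were 1 to 17 with 1 array left out. The cause was not tested. Between arrays of the same number, deviations from the group means had r of -0.51, 0.13, 0.62, -0.20 and 0.19. These values differ in sign, and so few cannot decide whether the numbers pair the samples. With the replicate block the median over the 5 genes was -0.43, and 0 member probe sets and 0 other Wnt genes passed. Signal over background limits Dkk2, the second Dkk3 probe set and 4 of 5 Sfrp1 probe sets.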
